A study of Mus musculus with 9 samples.

Results

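The mouse genes named Zfp and a number are the subject of this account, followed through the first hour of parathyroid hormone (PTH) in OB-6 cells, an osteoblastic line from mouse bone marrow. Members were chosen by gene symbol from the platform annotation, taking every probe set with 1 symbol of that form and leaving out Zfp36, Zfp36l1 and Zfp36l2, whose products bind mRNA. This gave 111 probe sets of 86 genes, of 10833 probe sets and 8251 genes with 1 symbol in all. Of the 111, 88 probe sets of 76 genes carry no suffix letter. The other 23, of 17 genes, carry a letter in their name (_f_, _r_ or _i_), with which the array's maker marks probe sets whose probes were harder to choose or may detect related transcripts. The symbols alone decide membership and no intensity does, but the family was proposed with the falls of Zfp62 and Zfp943 known. Values of those 2 genes are therefore given without a p-value, and the counts over the family and its groups are also given without them.

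Total RNA was hybridised from OB-6 cells at 0 min of PTH (the basal group), after 30 min and after 60 min, with 3 arrays per time called replicates a, b and c. All 3 groups are of the same cell line, with no genotype or further agent named, while hormone dose and culture conditions stay unstated in the labels. No hormone-free culture of the same age was analysed here, so hormone and elapsed time cannot be told apart. The labels do not say that replicates were separate cultures, so p-values measure the spread between arrays, which may be technical.

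Most Zfp proteins carry C2H2 zinc fingers, small folds in which cysteines and histidines hold a zinc ion and each finger reads a few bases of DNA. The largest subgroup joins such fingers to a KRAB domain, which recruits the corepressor Trim28 and, through it, histone methyltransferases and heterochromatin proteins, and many of its targets are transposable elements. KRAB zinc finger genes arose by tandem duplication and lie in clusters of close relatives, while other Zfp genes encode single-copy transcription factors, RNA-binding proteins or ubiquitin ligases that share only the naming series. Many mRNAs of zinc finger transcription factors turn over quickly. PTH signals to osteoblasts mainly by way of cAMP.

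Each value below is a deposited array intensity per probe set, always in the order of replicates a, b and c. Differences are on a log2 scale after adding 11.8 to each intensity, a scale that makes changes of dim probe sets look smaller than they are. Testing required that 3 or more of the 9 arrays exceed an intensity of 44.69, and a probe set is said to have risen or fallen at an adjusted p under 0.05 in a limma fit over all 7884 tested probe sets. Of the 111 members, 75 probe sets of 63 genes were tested. The other 36 ran from 0.7 to 63.779 over all arrays, and 23 genes had only such dim probe sets. Intensities of different probe sets depend on their probes and are not set against each other. In bulk RNA, fewer cells of a type and less RNA per cell cannot be told apart.

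Array medians over all probe sets ran from 82.31 to 85.92 at 0 min and from 73.06 to 80.25 at 60 min, so the 60 min arrays were dimmer at their middle although their trimmed means were equal. The ratio of 3' to 5' Gapdh control intensities, a sign of RNA integrity, ran from 0.666 to 0.859 over the 9 arrays, and that of actin from 0.302 to 0.874. Of the osteoblastic markers, 8 of 12 were measured and 6 lay above the filter on all 9 arrays, among them Col1a1 and Alpl, but the PTH receptor gene Pth1r lay at 6.70 to 41.6, below the filter on every array. The summed intensity of those 8 markers was 18459.6 to 19728.9 at 0 min, 15377.0 to 17915.3 at 30 min and 17262.7 to 18718.6 at 60 min. Markers of haematopoietic cells and osteoclasts summed to 1776.3 to 2016.7, 1916.5 to 2067.6 and 1829.0 to 2292.0 at the successive times, with 9 of 10 measured, and Ptprc, Itgam, Calcr and Cd3e were below the filter on all arrays. Cd14 (926.727 to 1424.263), Ctsk (522.396 to 734.185) and Cd68 (93.507 to 149.5) were above it on all 9. All 4 endothelial markers were below the filter on every array, and they summed to 29.3 to 45.3 at 0 min, 37.6 to 70.8 at 30 min and 81.1 to 95.3 at 60 min. Of 4 adipocyte markers measured Fabp4 and Lep were above the filter on all 9 arrays and Adipoq and Lpl on none, with sums of 346.5 to 586.2, 567.0 to 668.9 and 396.6 to 742.0. Of 7 skeletal muscle markers Myod1 was above it on all 9 and Ckm on 8, and Myh1 and Tnnt3 on none, with sums of 214.8 to 320.1, 359.9 to 396.6 and 295.2 to 422.0. Of 4 chondrocyte markers Col9a1 was above it on 8 arrays and Acan, Col2a1 and Matn1 on none, with sums of 184.4 to 213.4, 164.7 to 224.3 and 82.9 to 230.7.

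The sum of the osteoblastic markers was lower on every 30 min array than on any 0 min array, and single markers moved in opposite directions. Omd, a matrix proteoglycan of bone, fell from 2083 ± 225.4 at 0 min to 544.5 ± 120.4 at 60 min (SD, n = 3, limma adjusted p = 0.0145). Postn, another matrix protein, fell from 3900 ± 66.7 to 1708 ± 527.3 (adjusted p = 0.0179), while Col1a1, the main bone collagen, rose from 3809 ± 1060 to 5518 ± 669.3 (adjusted p = 0.0499). Ibsp read 117.4 ± 1.96 and 66.58 ± 30.4 (adjusted p = 0.0576). The part of these markers, or of those of other cell types, in the Zfp values below was not tested.

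At 60 min, 20 Zfp probe sets of 18 genes had fallen and none had risen. They made up 26.7% of the 75 tested, where 8.73% of all tested probe sets had fallen and 4.35% had risen. The falls ran from -2.01 for Zfp62 to -0.64 for probe set 99851_at of Zfp292, and 19 of the 20 exceeded 1 on the log2 scale. Genes of clustered zinc finger families fell (Zfp51, Zfp53, Zfp54, Zfp758, Zfp942, Zfp943, Zfp930, Zfp932 and Zfp982), and so did single factors such as Zfp148, Zfp281, Zfp322a and Zfp638. The count of 0 rises is from limma, in which 6 members were higher (8.0%, beside 14.5% of all tested) and 25 lower (33.3%, beside 18.4%) at an unadjusted p under 0.05, and no other tool was run. Without Zfp62 and Zfp943, 18 of 73 tested probe sets had fallen, or 24.7%.

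Of the 20, 8 reached the test only through the 0 min arrays, with fewer than 3 arrays above the filter outside that group: Zfp51, Zfp54, Zfp62, Zfp758, Zfp932, Zfp942, Zfp943 and Zfp982. The filter thus selects such probe sets for being brighter at 0 min, so their values are given below as a description, with no p-value. Of the 64 tested members that pass without the basal arrays 12 fell, or 18.8%, beside 8.2% of the 7577 probe sets of that kind over the array.

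The median difference over the 75 tested members was -0.22 at 60 min, beside 0.03 over all tested probe sets, and over all 111 members it was -0.14. The quartiles of the tested members were -0.97 and 0.14, so the lower part of the family lay far down while the upper part stayed close to 0. Of the 75, 26 had all 3 arrays at 60 min below all 3 at 0 min (34.7%, beside 20.7% over all tested probe sets), and 10 had them all above (13.3%, beside 20%). These values include members that the filter selected for being brighter at 0 min. Of the 64 that pass without the basal arrays, 18 lay all below (28.1%, beside 19.8% of all such probe sets). In 10 they lay all above (15.6%, beside 20.9%), and the median difference of the 64 was -0.13, beside 0.04. The 55 tested members that had not fallen showed array medians between -0.07 and 0.16 relative to their 0 min mean on the 6 treated arrays.

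**Figure D1:**
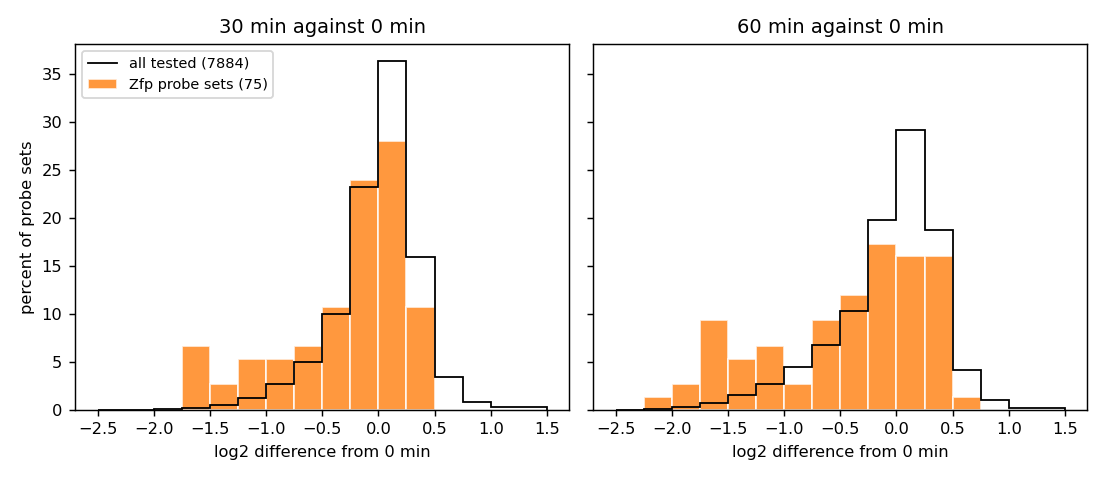
Share of probe sets (percent, vertical axis) by log2 difference from 0 min (horizontal axis, bins of 0.25) at 30 and 60 min, for the 75 tested Zfp probe sets and for all 7884 tested probe sets. The Zfp probe sets reach further down, with 19 below -1 at 60 min, and their highest value is 0.73.

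Chromosome 17 holds the largest group of falls. In mouse it carries several clusters of KRAB zinc finger genes, and 15 member genes map there in assembly GRCm38.p6. Of the 10 with a tested probe set 7 fell, with a median of -1.33, whereas 6.58% of all 380 tested probe sets on the chromosome fell and their median was 0.09. Without Zfp943 it was 6 of 9. All but Zfp53 and Zfp871 of these falls reached the test only through the 0 min arrays, and among the 5 genes there that pass without those arrays 2 fell, beside 4.93% of the 365 probe sets of that kind on the chromosome. This pattern was noticed after the values were seen and is a description. Chromosome 7 holds more members, 18 genes, but none of its 19 tested Zfp probe sets fell, beside 2.34% of all 513 tested probe sets there.

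Zfp943 read 112, 81.9 and 82.9 at 0 min, 41.5, 11.5 and 16.7 at 30 min and 23.7, 27.4 and 22.7 at 60 min. All 6 treated arrays lay below the lowest array at 0 min, and the means of 92.2 ± 17.0, 23.2 ± 16.0 and 24.6 ± 2.47 (SD, n = 3) differ by -1.65 at 30 min and -1.50 at 60 min. Zfp942, its neighbour, read 86.6, 72 and 48.5 at 0 min, 32.5, 24.9 and 33.6 at 30 min and 25.4, 7.4 and 24.5 at 60 min. Its groups did not overlap either, and its differences were -0.92 at 30 min and -1.42 at 60 min.

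Both genes start from 1 divergent stretch of DNA, and their promoters are shown because both genes fell. The RefSeq promoters (GRCm38.p6, 250 bases before to 50 after each start) are chr17:21962415-21962714 on the minus strand for Zfp942 and chr17:21962309-21962608 on the plus strand for Zfp943. They are written 5′ to 3′ on each gene's own strand, and capitals mark the 194 bases (chr17:21962415-21962608) that both share, in opposite orientation.
Zfp942: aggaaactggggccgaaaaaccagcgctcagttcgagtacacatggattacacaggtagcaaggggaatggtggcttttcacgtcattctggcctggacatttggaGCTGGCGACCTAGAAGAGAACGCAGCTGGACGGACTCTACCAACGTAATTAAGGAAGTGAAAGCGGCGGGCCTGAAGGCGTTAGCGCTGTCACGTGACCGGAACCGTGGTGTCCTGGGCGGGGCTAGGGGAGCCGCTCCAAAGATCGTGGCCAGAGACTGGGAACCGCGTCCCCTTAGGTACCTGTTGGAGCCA
Zfp943: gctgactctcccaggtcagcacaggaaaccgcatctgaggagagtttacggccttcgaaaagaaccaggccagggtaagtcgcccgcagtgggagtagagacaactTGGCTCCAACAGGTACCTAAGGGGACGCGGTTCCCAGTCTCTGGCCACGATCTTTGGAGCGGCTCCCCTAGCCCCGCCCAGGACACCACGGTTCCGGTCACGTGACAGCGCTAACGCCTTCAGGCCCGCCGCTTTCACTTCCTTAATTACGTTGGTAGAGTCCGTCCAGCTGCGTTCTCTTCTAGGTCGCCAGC
The start sites, at 21962464 and 21962559, lie 95 bases apart. Neither promoter holds the CRE letters TGACGTCA or the AP-1 letters TGANTCA on either strand.

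Zfp51, Zfp53 and Zfp54 are close relatives that lie near each other on the same chromosome. Zfp53 read 176, 147 and 119 at 0 min, 100.4, 35.7 and 50.4 at 30 min and 60.3, 41.8 and 29.2 at 60 min and fell by 1.54 (SE 0.32, adjusted p = 0.0168). Zfp51 read 86.3, 72 and 48.3 at 0 min, 34.1, 20.5 and 31.4 at 30 min and 25.6, 19.5 and 16.4 at 60 min, a difference of -1.30. On Zfp54's tested probe set, 102626_r_at, the arrays read 67.2, 60.6 and 88.2 at 0 min, 41.9, 9.6 and 9.4 at 30 min and 28.3, 18.2 and 16 at 60 min, a difference of -1.37. In each of the 3 genes every treated array lay below every basal one. All 3 probe sets carry a suffix letter and may detect each other's transcripts, so they are uncertain as separate measurements. The basal arrays of Zfp51 (86.3, 72.0 and 48.3) and of Zfp942 (86.6, 72.0 and 48.5) are almost the same numbers, and whether those probe sets share signal was not tested.

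Further along the same chromosome, Zfp758 read 141, 93 and 117 at 0 min, 76, 25.5 and 43.2 at 30 min and 41.1, 42.1 and 47.2 at 60 min. Its difference at 60 min was -1.21, with values at 30 and 60 min close to each other. The RefSeq promoter of Zfp758 has nearly the same letters as that of Zfp943, and whether the probe sets of these genes share signal was not tested. Zfp871 lies outside that run and read 391, 426 and 361 at 0 min, 307, 127 and 188 at 30 min and 198, 68.6 and 135 at 60 min. The difference was -0.96 at 30 min, which did not pass (adjusted p = 0.186), and -1.58 at 60 min (SE 0.34, adjusted p = 0.0199), and replicate b was the lowest array of each treated group. Zfp51 and Zfp758, and Zfp326 further on, were outside the rule for named genes and were added after their values were seen.

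Placing each member beside its neighbours, a run was defined as members each no more than 10 places from the next in the order of protein-coding genes. One run on chromosome 17 holds Zfp54, Zfp51, Zfp53, Zfp942, Zfp943, Zfp758, Zfp40 and Zfp213 in that order. Of its 7 tested genes 6 fell, or 5 of 6 without Zfp943. In 5 of those 6 the probe set reached the test only through the 0 min arrays, and of the other pair Zfp53 fell and Zfp213 did not. Zfp213 read 123, 156 and 151 at 0 min, 168, 201 and 203 at 30 min and 173, 194 and 179.5 at 60 min, a difference of 0.33 that did not pass (adjusted p = 0.129). Zfp40 was too dim to test and read 27.9, 19.5 and 23.9 at 0 min, 13.7, 9.0 and 12.3 at 30 min and 16.3, 5.0 and 12.7 at 60 min, lower on every treated array. None of the 23 other genes within that run had a tested probe set, so no neighbour outside the family could be read. Over the genome, 9 of 29 tested genes in runs fell and 9 of 34 of those standing alone, or 8 of 28 and 8 of 33 without Zfp943 and Zfp62. Of those with a probe set that passes without the basal arrays the counts were 4 of 22 and 6 of 30. Counted as probe sets, 27.3% in runs and 26.2% alone fell, beside 8.73% of all tested. Among those passing without the basal arrays the shares were 15.4% and 21.1%, beside 8.2%. Runs were built only from members on the array, so Zfp930, Zfp932 and Zfp982, of multigene families, count as alone. The split therefore does not compare clustered with single-copy genes.

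**Figure D2:**
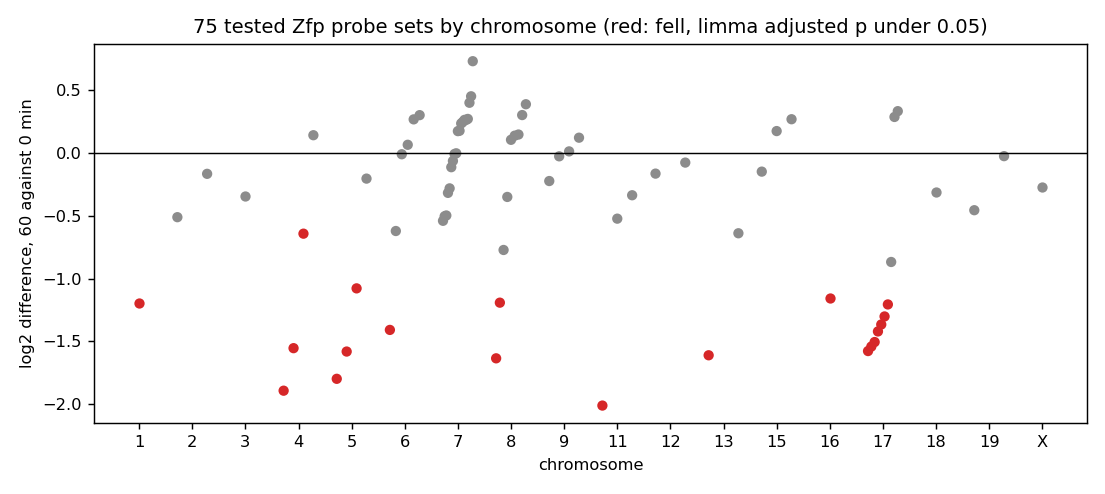
Log2 difference of 60 min from 0 min (vertical axis) of each tested Zfp probe set by chromosome (horizontal axis), with probe sets that fell in red, the others in grey and points spread sideways in order of value. Of the 10 on chromosome 17, 7 fell, and none of the 19 on chromosome 7 did.

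Zfp62 gave the lowest difference of the family. It read 210.3, 171 and 162 at 0 min, 94.3, 31.4 and 40.2 at 30 min and 48.6, 25 and 37 at 60 min. Every treated array lay below every basal one, and the means of 181 ± 25.5, 55.3 ± 34.0 and 36.9 ± 11.8 (SD, n = 3) correspond to differences of -1.63 and -2.01, a 4.03-fold lower level at 60 min. Zfp982, Zfp930 and Zfp932 belong to multigene zinc finger families, whose near-identical copies can share probes. Zfp982 read 70.2, 61.9 and 64.6 at 0 min, 16.2, 11.9 and 12.5 at 30 min and 17, 3.0 and 9.4 at 60 min. Its differences were -1.61 and -1.89, and all treated arrays were at 17.0 or less. Zfp932 read 84.2, 68.6 and 80.3 at 0 min, 32.9, 17.1 and 8.6 at 30 min and 6.6, 19.3 and 17.8 at 60 min, a difference of -1.80 at 60 min.

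Zfp930 has a pair of probe sets, and both fell. The first, 94110_f_at, read 277, 226 and 197 at 0 min, 153, 75.2 and 106 at 30 min and 96.9, 64 and 46.5 at 60 min, a fall of 1.63 (SE 0.27, adjusted p = 0.00912). The second, 94111_r_at, read 152, 116 and 134 at 0 min, 91.4, 48.9 and 97.1 at 30 min and 44.8, 68.2 and 44.8 at 60 min and fell by 1.19 (SE 0.25, adjusted p = 0.0171). At 30 min neither passed, with -1.03 and -0.72, although no treated array reached the basal range.

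Several single factors with known roles in stem and progenitor cells also fell. Zfp322a, a factor of the pluripotency network of embryonic stem cells, read 423, 384 and 445 at 0 min, 254, 129 and 137 at 30 min and 155, 89.8 and 151 at 60 min. It fell by 1.27 at 30 min (SE 0.26, adjusted p = 0.0481) and by 1.61 at 60 min (SE 0.26, adjusted p = 0.00787). Among the members called at 60 min it was the only one whose call held in each of the 9 fits that left out 1 array. Zfp281, which binds GC-rich promoters and limits the pluripotency programme, read 473, 450.4 and 479 at 0 min, 393, 205 and 380.3 at 30 min and 261, 127 and 229.8 at 60 min. Replicate b was the lowest array of both treated groups, and no treated array reached the basal range. The difference was -0.56 at 30 min, which did not pass (adjusted p = 0.321), and -1.20 at 60 min, which did (SE 0.28, adjusted p = 0.0234). Zfp148, also called ZBP-89, binds similar GC-rich elements and read 175, 185 and 227 at 0 min, 180.0, 86.2 and 113 at 30 min and 82.7, 67.9 and 93.1 at 60 min. At 30 min replicate a lay within the basal range while b and c lay below it, and by 60 min all 3 were below, a fall of 1.16 (SE 0.23, adjusted p = 0.0158).

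Among members that act on chromatin or RNA, Zfp644, a partner of the histone methyltransferases G9a and GLP, read 923, 941 and 773 at 0 min, 613, 251 and 323 at 30 min and 347, 219 and 304 at 60 min. It fell by 1.58 (SE 0.28, adjusted p = 0.0104), about 2.99-fold, with -1.22 at 30 min (adjusted p = 0.072). Zfp638, a nuclear protein that works with C/EBP factors in adipocyte formation, read 151, 135 and 170.3 at 0 min, 99.1, 34.7 and 42.3 at 30 min and 55.4, 47.3 and 46.9 at 60 min. It fell by 1.41 at 60 min (SE 0.29, adjusted p = 0.0159), and at 30 min replicates b and c already lay below the 60 min arrays while a lay above them. Zfp326, a component of the DBIRD complex that couples RNA polymerase II elongation to splicing, read 247, 194 and 191 at 0 min, 141, 101 and 124 at 30 min and 106, 77.2 and 98.3 at 60 min. Its treated arrays lay close together, and it fell by 1.08 (SE 0.17, adjusted p = 0.00846).

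Zfp292, a large zinc finger protein first described as binding the growth hormone promoter, was measured by a pair of probe sets that both fell by different amounts. Probe set 99001_at read 122, 156 and 142 at 0 min, 92.9, 64.8 and 69.4 at 30 min and 76.1, 9.3 and 62 at 60 min, a fall of 1.55 (SE 0.44, adjusted p = 0.0416), in which replicate b at 60 min was far below its fellows. Probe set 99851_at read 324, 354 and 374 at 0 min, 303, 199 and 245 at 30 min and 237, 248 and 181 at 60 min and fell by 0.64 (SE 0.17, adjusted p = 0.0345). Without replicate b at 60 min the first probe set's difference was -0.91.

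**Figure D3:**
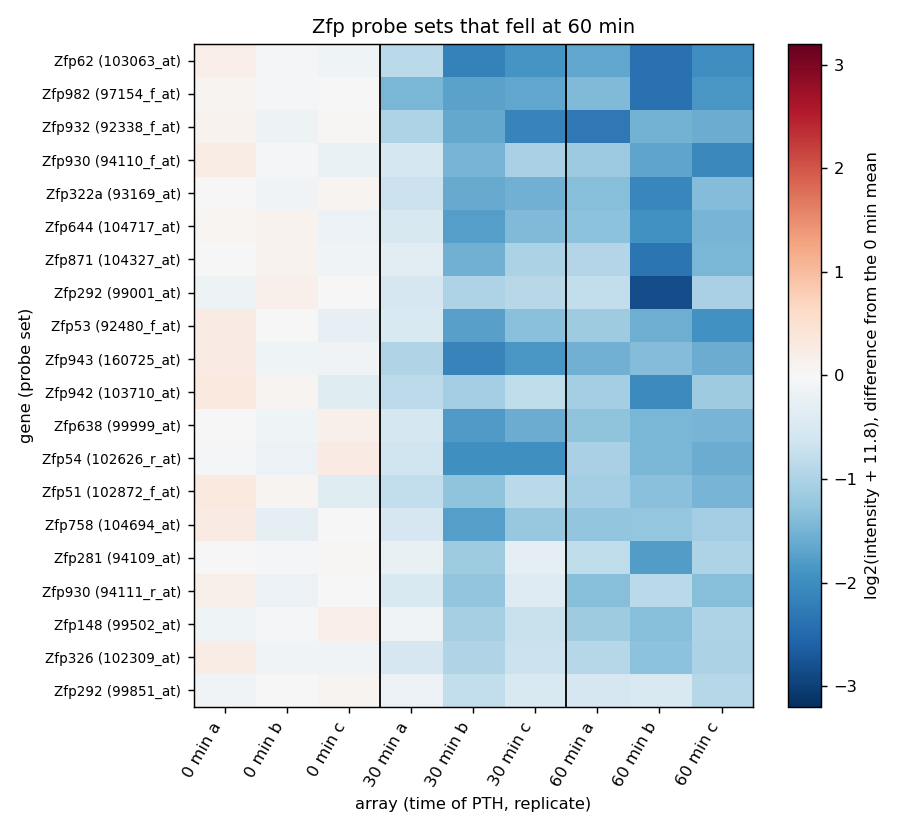
Log2 difference from the 0 min mean (colour scale) of the 20 Zfp probe sets that fell at 60 min (rows) on each of the 9 arrays (columns, by time and replicate). Medians over the rows are -0.55, -1.57 and -1.13 on the 30 min arrays a, b and c and -1.14, -1.54 and -1.47 on the 60 min arrays.

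Which array was lowest was shared across the 20 fallen probe sets. At 30 min replicate a was the highest of its group in 18 of the 20 and replicate b the lowest in 18. At 60 min replicate a was the highest in 14 and replicate b the lowest in 10. The median fall from the 0 min mean was -0.55 on array a at 30 min against -1.57 on b and -1.13 on c. On the same arrays the 55 other tested members had medians of 0.04, 0.07 and 0.05 and all tested probe sets 0.02, 0.04 and 0.06. At 60 min the fallen members had medians of -1.14, -1.54 and -1.47. How often a was highest and b lowest at 30 min was not counted over all fallen probe sets. The order is therefore not shown to be particular to the family. Among fallen genes of the context lists below, Zkscan1, Zscan26, Sp3, Zbtb20, Zfx and the Smarcad1 probe set without a suffix letter had it. Zeb1, Bcl6 and the other Smarcad1 probe set did not. Array medians of raw intensity were 88.52, 76.32 and 85.66 at 30 min and 80.25, 73.06 and 73.72 at 60 min, so array b had the lowest median of its group at both times. After quantile normalization, which gives all arrays the same distribution, 20 members fell at 60 min (26.7%, beside 7.9% of all tested). After cyclic loess 19 fell (25.3%, beside 7.89%).

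At 30 min, 4 members had fallen and none had risen: Zfp62, Zfp943, Zfp982 and Zfp322a. They were 5.33% of the 75 tested, beside 0.457% of all tested probe sets that had fallen and 0.482% that had risen. All but Zfp322a reached the test only through the 0 min arrays, and of the 64 members that pass without those arrays 1 fell (1.56%, beside 0.356% of all such probe sets). Without Zfp62 and Zfp943 the count was 2 of 73. It was 0 with a constant at the 10th percentile of all values (beside 0.342% of all tested) and 10 with one at the 50th (13.3%, beside 1.62%). At an unadjusted p under 0.05 the same limma test had 18 members lower (24.0%, beside 9.75% of all tested) and 2 higher (2.67%, beside 8.16%). The median over tested members was -0.07, beside 0.05 over all tested probe sets. In 25 members (33.3%) all 3 arrays at 30 min lay below all 3 at 0 min, where the share over all tested probe sets was 15.3%, and in 7 (9.33%, beside 15.3%) they lay above. Of the 64 that pass without the 0 min arrays, 15 lay below (23.4%, beside 14.6% of all such probe sets) and 7 above (10.9%, beside 15.9%). The median difference of those 64 was -0.04, beside 0.06. The comparisons of 30 and 60 min use the same 0 min arrays, so their values are not independent.

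Between 30 and 60 min no member rose or fell by limma, where 0.0254% of all tested probe sets fell and 0.0% rose. At an unadjusted p under 0.05, 4 members were lower (5.33%, beside 4.93% of all tested) and 2 higher (2.67%, beside 4.13%), shares near the background, and the lowest adjusted p was 0.54. The median difference was -0.15 over the tested members and -0.05 over all tested probe sets. The lowest values that did not pass were -0.75 for Zfp292 (99001_at), -0.64 for Zfp281 and -0.61 for Zfp871. The highest were 1.20 for Zfp787 (161562_f_at), 0.34 for Zfp777 and 0.31 for Zfp703. Zfp943 and Zfp54, low at 30 min already, had 0.15 and 0.15.

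No member passed as higher at either time, and no positive difference from 0 min exceeded 0.73 among the tested. Zfp787 had the largest difference at 60 min, 0.73 on probe set 161562_f_at, which did not pass (SE 0.86, adjusted p = 0.603). Its arrays read 154, 6.5 and 140.2 at 0 min, 10.2, 30.7 and 174 at 30 min and 104, 126 and 119.8 at 60 min, with the basal and the 30 min arrays far apart among themselves. Its other probe sets, 103478_at and 161019_at, had steadier arrays and differences of 0.26 (adjusted p = 0.32) and 0.27 (adjusted p = 0.383). Zfp524 read 157, 118 and 134 at 0 min, 143, 181 and 162 at 30 min and 150.3, 232 and 195 at 60 min, a difference of 0.45 (adjusted p = 0.11). Zfp444 read 101, 144 and 115 at 0 min, 159.8, 147 and 165 at 30 min and 149.7, 177 and 156 at 60 min, and all treated arrays lay above the basal ones. Its differences were 0.37 and 0.40 (adjusted p = 0.23 and 0.099). At 30 min the 3 largest were Zfp213 with 0.39, Zfp444 with 0.37 and Zfp398 with 0.37, none of which passed.

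The brightest probe sets are given because the added constant weighs least on them. Zfp91, a ubiquitin ligase for the kinase NIK, read 1135, 1136 and 1133 at 0 min, 1102, 795 and 1002 at 30 min and 1025, 514 and 1060.1 at 60 min. Its basal arrays were nearly identical, and the lower mean at 60 min rested largely on replicate b (-0.46, SE 0.24, adjusted p = 0.211; -0.12 without that array). Zfp207, or BuGZ, which loads Bub3 onto kinetochores, read 1034, 999 and 1043 at 0 min, 996, 874 and 1062 at 30 min and 869, 521 and 787 at 60 min. All 60 min arrays lay below the basal range, but the difference of -0.52 did not pass (SE 0.17, adjusted p = 0.0641). Zfp598, a ubiquitin ligase that senses stalled ribosomes, read 508, 494 and 493 at 0 min, 579, 543 and 511 at 30 min and 594, 678 and 563 at 60 min, every treated array above every basal one, with 0.29 at 60 min (adjusted p = 0.103).

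Zfp275 read 392, 440.2 and 398 at 0 min, 385, 399 and 379 at 30 min and 417, 280.1 and 327 at 60 min, and the groups overlapped (-0.27, adjusted p = 0.213). Probe set 161465_r_at of Zfp94 read 685, 619.5 and 847 at 0 min, 1189, 783 and 475 at 30 min and 530.4, 1109 and 532 at 60 min, with arrays of 1 time as far apart as those of different times. Its other probe set, 101655_at, ran from 8.8 to 24.6 and was not tested, so the bright signal has no second probe set behind it. Zfp622, which takes part in maturing the large ribosomal subunit, read 319.8, 337 and 353 at 0 min, 339, 426 and 376 at 30 min and 370.4, 463 and 394 at 60 min (0.27, adjusted p = 0.178). Zfp703, a corepressor, read 239, 218 and 211 at 0 min, 229.9, 204 and 229 at 30 min and 239.5, 326 and 271 at 60 min (0.30, adjusted p = 0.154). Zfp385a, an RNA-binding cofactor of p53, read 288, 285 and 307 at 0 min, 357, 252 and 358 at 30 min and 320.2, 386 and 295 at 60 min, also without a passing difference (0.17, adjusted p = 0.485).

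**Figure D4:**
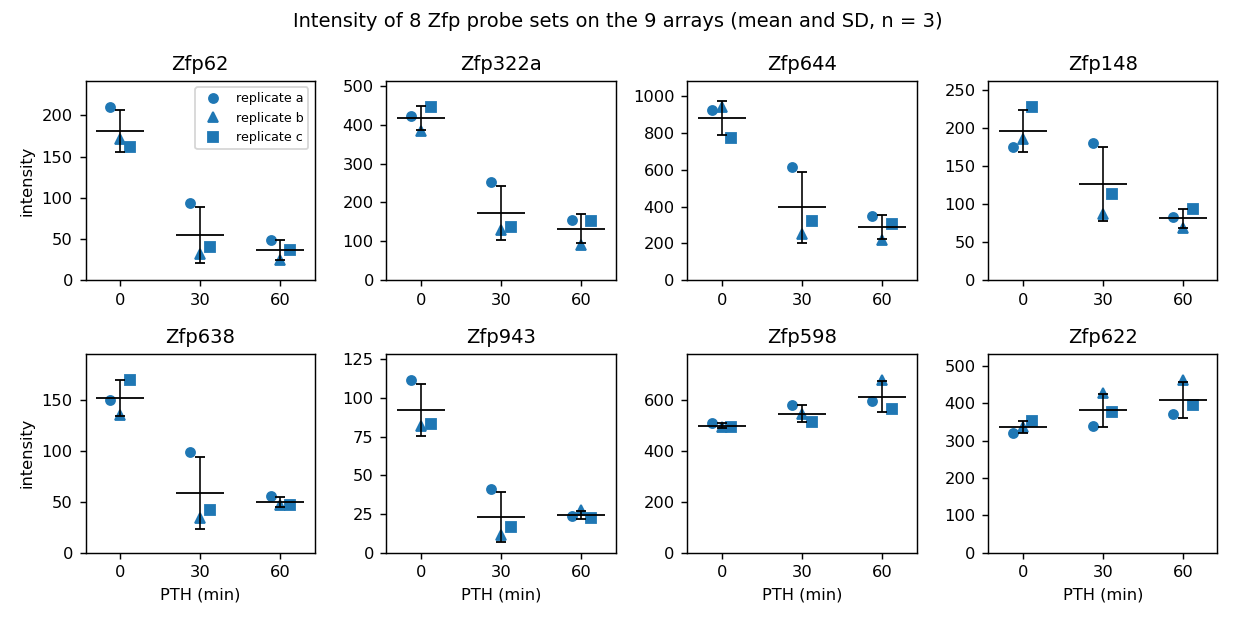
Deposited intensity (vertical axes, linear from 0, one scale per panel) of single Zfp probe sets on each array by minutes of PTH (horizontal axes), with a symbol per replicate, a horizontal line for the mean and an error bar for the SD (n = 3). In the panels of Zfp322a and Zfp644 all treated points lie below the basal ones, while in that of Zfp148 replicate a at 30 min lies within the basal range. In the panel of Zfp598 the treated points lie above the basal ones.

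Of the 10 genes listed for a role in bone or stem cells, Zfp148 and Zfp281 are described above, and the other measured ones were dim. Zfp467, which steers marrow progenitors between osteoblast and adipocyte fates, ran from 8.2 to 56 and was not tested. Zfp42, the stem cell marker Rex1, ran from 2.8 to 10.6, and Zfp57, which keeps genomic imprints with Trim28, from 9.9 to 16.2, neither of them with any array above the filter. Zfp521, Zfp423, Zfp354c, Zfp143 and Zfp217 were not analysed here. Zfp101, also too dim to test, read 56.9, 45.8 and 38.6 at 0 min, 36.4, 10.5 and 5.2 at 30 min and 13.5, 3.6 and 24 at 60 min. It resembled the falls above in that no treated array reached the basal range, and its log2 differences were -1.15 and -1.28. This gene was chosen after its values were seen.

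Where a gene had several probe sets, they were compared with each other. This applied to 21 genes with 46 probe sets, of which 11 genes had 2 or more tested. The direction at 60 min was the same for all tested probe sets of 9 genes (Zfp930, Zfp292, Zfp91, Zfp106, Zfp93, Zfp277, Zfp651, Zfp787 and Zfp574). It was opposite in 2, Zfp61 (-0.28 and 0.18) and Zfp1 (-0.35 and 0.10), none of which passed. For Zfp91 the brighter probe set had -0.46 and the other tested one -0.03, and its remaining one was at 6.3 or less on every array. Zfp106, an RNA-binding protein needed by motor neurons, had -0.51 and -0.17 and a remaining probe set at 6.6 or less.

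Of the fallen genes with more than 1 probe set, Zfp54 and Zfp638 each rest on a single tested one. The second probe set of Zfp54 read 34.1, 19.8 and 19.8 at 0 min, 13.5, 3.7 and 11.6 at 30 min and 7.2, 9.8 and 15.1 at 60 min, lower on every treated array but too dim to test. That of Zfp638, 162409_r_at, ran from 3.9 to 20.5 and overlapped between times. The remaining genes with several probe sets had 1 tested or none. Tested differences at 60 min were -0.06 for Zfp94, -0.00 for Zfp771, 0.27 for Zfp622, 0.30 for Zfp777, -0.11 for Zfp568 and -0.54 for Zfp30, and both probe sets of Zfp503 and of Zfp37 were untested. None of these passed.

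Probe sets without and with a suffix letter were counted apart. Of 59 tested without a letter 13 fell at 60 min, 22%, beside 9.31% of all such probe sets. Of 16 tested with a letter 7 fell, 43.8%, beside 6.26% of all such probe sets. Without Zfp62 and Zfp943, whose probe sets carry no letter, 11 of 57 fell. Among probe sets that pass without the basal arrays the counts were 9 of 52 without a letter and 3 of 12 with one. The shares over all probe sets of those 2 kinds were not computed, so these counts have no background beside them. At 30 min 3 of the 59 without a letter fell (5.08%, beside 0.424% of all such probe sets). With a letter 1 of 16 fell (6.25%, beside 0.593%). Among those that pass without the basal arrays the 30 min counts were 1 of 52 and 0 of 12. The median difference at 60 min was -0.17 without a letter and -0.33 with one. The spread within a time was wider with a letter: the median SD of the log2 values was 0.35, against 0.24 without a letter and 0.21 over all tested probe sets. It was 0.40 for the 20 that fell and 0.23 for the other 55.

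In all, 11 tested members had fewer than 3 arrays above the filter outside 0 min: the 8 that fell, named above, and Zfp28, Zfp239 and Zfp692. Without Zfp62 and Zfp943, 6 of 9 of that kind fell, and no weight is put on this count. When the filter was put on the mean over all arrays, a choice made after seeing the data, 68 members were tested. Of these 15 fell at 60 min (22.1%, beside 8.91% of all probe sets tested so) and 3 at 30 min (4.41%, beside 0.453%).

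Leaving out 1 array at a time changed which members passed. At 60 min the count of fallen members was 1 without basal replicate a, 4 without basal b and 9 without basal c. Dropping the 30 min arrays a, b and c in turn gave 21, 19 and 18. Dropping the 60 min arrays b or c gave 18 and 17, and dropping a gave 24 falls and 1 rise. Without Zfp62 and Zfp943 the counts of falls in those fits ran from 1 to 22. The share of all tested probe sets that fell moved as well, from 0.583% without basal a to 13.3% without 60 min a. The median difference of the 20 fallen members stayed between -1.34 and -1.55 in those 9 fits, and all 20 kept a negative difference. The 20 were chosen for their falls on these same arrays, and each fit drops only 1 of them. Their median and signs were thus largely set by that choice and do not test the falls. Without basal a the call of Zfp322a was the one that held, and without basal b those of Zfp322a, Zfp62, Zfp326 and Zfp930 (94110_f_at) held. Without basal c the calls of Zfp51, Zfp53, Zfp644, Zfp942 and Zfp982 held too. Of these, Zfp51, Zfp62, Zfp942 and Zfp982 reached the test only through the 0 min arrays, and the fall of Zfp62 was known beforehand. No weight is put on their calls having held. The calls of Zfp54 and Zfp758 were lost without 60 min b or c, and both of Zfp292 without 30 min c. Zfp292 also lost probe set 99001_at without 30 min b and probe set 99851_at without 60 min c. At 30 min the count was 13 without replicate a of that time (17.3%, beside 3.12% of all tested) and 11 without 60 min replicate b (14.7%, beside 4.96%). It was 2 without 60 min a (2.67%, beside 0.482%) and 0 without any 1 of the others.

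**Figure D5:**
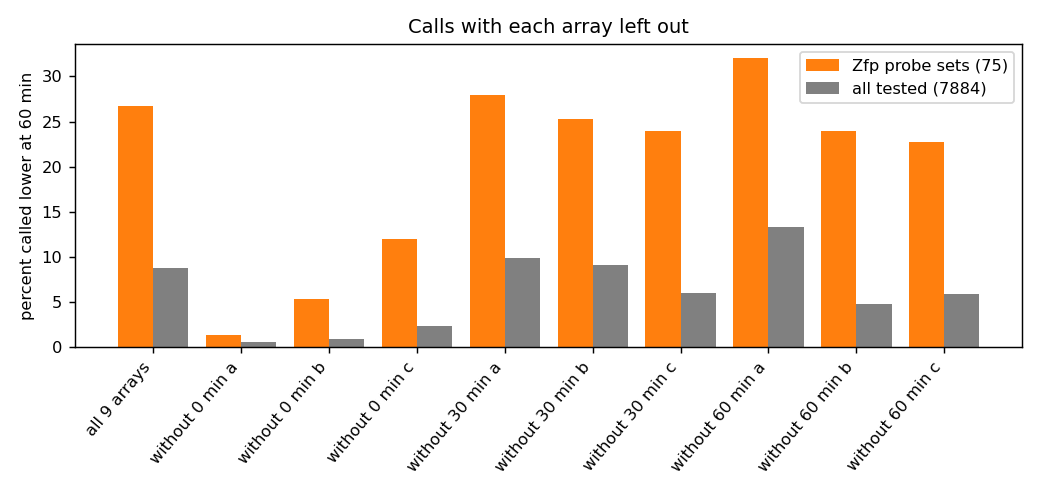
Share of tested probe sets that fell at 60 min (percent, vertical axis) with all arrays and with each array left out in turn (horizontal axis), for the 75 Zfp probe sets and for all 7884. The Zfp share runs from 1.33% without basal replicate a to 32.0% without 60 min replicate a, and the share over all probe sets from 0.583% to 13.3%.

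The promoters of the members were searched for the elements through which cAMP and AP-1 act. Of the 86 genes 71 had a RefSeq promoter, 92 in all, each of 300 bases. The CRE letters TGACGTCA were found on either strand in 0 of the 92, beside 1.79% of all 32851 promoters. The AP-1 letters TGANTCA were in 3, or 3.26%, beside 7.81% of all. These 3 belong to Zfp239, Zfp57 and Zfp871. Member promoters held a median of 18 CpG pairs and 58.3% G and C, beside 7 and 52.7% over all promoters. The 25 promoters of 16 fallen genes had a median of 16 CpG pairs and the 44 of the other tested members 22.

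Zfp871 is the only fallen gene with such a match. Its other RefSeq promoter, chr17:32787498-32787797, holds no match, and the promoter with the match is printed. It is chr17:32788238-32788537 (GRCm38.p6, minus strand, RefSeq), written 5′ to 3′, with the AP-1 letters in capitals, starting 85 bases before the start site.
Zfp871: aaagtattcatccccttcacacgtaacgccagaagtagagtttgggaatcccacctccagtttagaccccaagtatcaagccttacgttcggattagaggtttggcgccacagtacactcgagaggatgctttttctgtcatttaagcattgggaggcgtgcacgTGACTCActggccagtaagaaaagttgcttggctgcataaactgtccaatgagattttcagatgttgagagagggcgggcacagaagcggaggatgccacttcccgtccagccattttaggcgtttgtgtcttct
A match describes the letters and is not a shown binding site.

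Genes around the family were read from 3 lists. Of the KRAB corepressor and heterochromatin genes, 23 were measured and 24 probe sets tested, of which 2 fell (8.33%) and 2 rose (8.33%) at 60 min, beside 8.73% and 4.35% of all tested probe sets, so the share that fell was near the background. Trim28, the corepressor that KRAB domains recruit, rose by 0.37 (SE 0.096, adjusted p = 0.0326) from 3023 ± 103 to 3929 ± 400.4 (SD, n = 3). Uhrf1, which brings DNA methyltransferase to replicating DNA, rose by 0.82 (adjusted p = 0.0132). Both probe sets of the chromatin remodeller Smarcad1 fell, by 0.97 (adjusted p = 0.0487) and by 0.96. The latter, without a suffix letter, reached the test only through the 0 min arrays. Its value is a description with no p-value, and no weight is put on it as a second measurement. The 8.33% that fell includes it. The median over the list was -0.03.

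In the other C2H2 families with systematic names (Zbtb, Zscan, Zkscan, Zeb, Sp and the like), 26 probe sets were tested. At 60 min 5 fell (19.2%), beside 8.73% of all tested probe sets, and the median was -0.13, beside 0.03. Zkscan1, with -1.15, had the deepest fall, followed by Zscan26 with -1.12, Sp3 with -1.10 and Zbtb20 with -0.93. The written rule for that list also took in Sp100, which is no C2H2 protein. Of the single C2H2 factors 18 probe sets were tested, and the directions were mixed. The X-linked factor Zfx fell by 1.28 (adjusted p = 0.0475) and the repressor Bcl6 by 0.46 (adjusted p = 0.0288). Both tested probe sets of Gtf3a, the finger protein of 5S RNA transcription, rose, by 1.02 and 0.57, and so did Snai1, by 0.93 (adjusted p = 0.00693). The median there was 0.07.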

How the data were processed

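Intensities were deposited by the authors as 1 linear value for each of 12488 probe sets on each of 9 arrays (0.1 to 8605.242). How they were summarised is not given in the sources used here, and array depth has no counterpart beyond the number of arrays, which limits the precision. With the extremes trimmed, array means ran from 250.1 to 250.2, so the deposited intensity was used as scaled. Symbols came from the platform annotation, and all 111 member probe sets matched GRCm38.p6 by Entrez identifier. Another 6 Zfp probe sets with several symbols were left out.

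Values were taken as log2(intensity + 11.8), the 20th percentile. After 66 control probe sets were left out, 7884 had at least 3 of 9 arrays above the 40th percentile (44.69). One mean per time was fitted with limma 3.58.1 in R 4.3.3 (lmFit, eBayes with a trend, 6 residual and 4.68 prior degrees of freedom), with Benjamini-Hochberg adjustment over all tested probe sets and a threshold of 0.05. The fit was tested on simulated data.

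Members, lists, named genes and tests were chosen with earlier results of these data known. The genes named were, among those called, up to 12 falls and 10 rises per comparison with 0 min (the 3 largest where fewer than 3 passed), the 3 largest each way for 60 against 30 min, the 6 brightest, genes with several probe sets, 10 genes with a role in bone or stem cells, and called genes of the 3 context lists. Alternatives were another constant, filter or scaling, a block for the replicate letter, a fit of 2 times alone and each array left out.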

Additional observations from a re-analysis of the deposited data

How the results depend on the processing

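At 60 against 0 min, 20 Zfp probe sets fell, and the count stayed within 1.5 times of that under other constants, scalings and variance settings, without a filter and with the letter block. It was 9 with a stricter filter, which tested fewer probe sets (24.3% of 37, beside 10.8% of all tested so). Probe sets without a suffix letter alone gave 13 and those with one 7. Leaving out 1 array gave 1 to 25 calls. At 30 against 0 min, 4 fell. The count was 0 with a constant at the 10th percentile, 1 without a filter, 1 with the stricter filter, 2 without a variance trend, 2 without Zfp943 and Zfp62 and 1 for suffix-letter probe sets alone. It was 8 after quantile normalization, 10 with a constant at the 50th percentile and 10 in a fit of the 2 times alone. Leaving out 1 array gave 0 to 13 calls, while the share of all tested that fell ran from 0.0127% to 4.96%. The cause of these changes was not tested. At 60 against 30 min the count was 0 under every alternative. No difference that was called changed its sign, but the called differences were chosen in these same data, so this does not test them.

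With the replicate letter as a block, the counts were 10 at 30 min, 21 at 60 min and 0 between the treated times. The share of all tested that fell was then 2.55% at 30 min and 12.1% at 60 min, against 0.457% and 8.73% without the block. The letters were treated as not pairing the arrays, but pairing was not excluded. Deviations of arrays with the same letter correlated at 0.0545 to 0.304 for a, -0.0629 to 0.251 for b and -0.128 to 0.0315 for c. Of 9 arrays, 4 correlated best with an array of their own letter. For the single probe sets and context genes, 408 alternative values kept direction and side of the threshold, 99 lost a call, 46 gained one and 14 differences without a test moved beyond the spread of the replicates. Dim probe sets, and the 3 arrays per time, limit what can be read.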
